A study of Mus musculus with 703 samples.

Results

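The fast-fibre genes described here are 9 of the 19088 genes in the deposited count table, taken by symbol: the myosin heavy chains Myh2, Myh1 and Myh4 and their fast-fibre companions Mylpf, Tnnt3, Tnni2, Actn3, Atp2a1 and Pvalb. They were measured by RNA sequencing of gastrocnemius, a calf muscle, in 703 libraries from 20 CC-RIX strains of mice. Each strain is an F1 cross between inbred Collaborative Cross lines, whose genomes are mosaics of 8 founder strains, and 19 such lines were used. From 6 weeks of age the mice ate a diet with 10% fat or a high-fat, high-sugar diet with 44% fat, both labelled as holding fiber. Of the 703 libraries, 469 came from untreated mice and 234 from mice that drank metformin, a glucose-lowering drug, from the age of 7 months (5 mg/mL). The untreated were 236 females and 233 males, and 234 of them ate 10% fat and 235 ate 44% fat. Treated females numbered 57 on 10% and 59 on 44% fat, and treated males 59 on each diet. Mice were studied in a cohort of 6 and a cohort of 12 months, without a label for each animal's age, and since the drug began at 7 months all treated mice belong to the older cohort, whereas untreated mice may belong to either. Metformin and age therefore cannot be told apart. Each strain stands for 1 cross of 2 lines, and no founder strain or inbred line was measured on its own.

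Myosin heavy chains are the motor proteins of the muscle filament, and the chain a fibre carries sets how fast it shortens. Myh2 encodes the 2A chain of fast fibres that also use oxygen well, Myh1 the intermediate 2X chain, and Myh4 the 2B chain of the fastest, most glycolytic fibres, which are abundant in the mouse calf. Fibres can shift along the series from 2B through 2X to 2A with training, nerve activity and metabolic state, and slow fibres carry Myh7 in place of these chains. The 3 fast genes lie side by side on chromosome 11, with the developmental genes Myh3 and Myh8 at either side of them.

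In GRCm38, Myh2 (ENSMUSG00000033196) spans chr11:67171027-67197517, Myh1 (ENSMUSG00000056328) chr11:67200052-67224575 and Myh4 (ENSMUSG00000057003) chr11:67238029-67260446, all on the forward strand. The other genes are spread over chromosomes 7, 15 and 19. Mylpf (ENSMUSG00000030672), the regulatory light chain of fast myosin, lies at chr7:127208890-127214298, and Atp2a1 (ENSMUSG00000030730), the calcium pump SERCA1 of fast fibres, at chr7:126445858-126463108. Tnni2 (ENSMUSG00000031097) and Tnnt3 (ENSMUSG00000061723), the inhibitory and tropomyosin-binding subunits of fast troponin, are neighbours at chr7:142441808-142444410 and chr7:142498836-142516009. Actn3 (ENSMUSG00000006457), the alpha-actinin of the fast-fibre Z line, lies at chr19:4861223-4877909, and Pvalb (ENSMUSG00000005716), the calcium buffer parvalbumin, at chr15:78191114-78206400.

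The stretches just before the starts of the 3 myosin genes are shown because these neighbours share sequence there while their levels in the muscle differ widely. They are the 250 bases before each gene's start in RefSeq on GRCm38.p6, read 5′ to 3′ on the forward strand. For Myh2 that start, 67171027, is the first base of the span given above. For Myh1 it is 67200102, inside the span, and for Myh4 67237812, upstream of the span. Capitals mark the longest run of bases that all 3 windows share, AATATTTCTAATTATATCCA, and each TATAAA on this strand. The windows are chr11:67170777-67171026 for Myh2, chr11:67199852-67200101 for Myh1 and chr11:67237562-67237811 for Myh4.
Myh2: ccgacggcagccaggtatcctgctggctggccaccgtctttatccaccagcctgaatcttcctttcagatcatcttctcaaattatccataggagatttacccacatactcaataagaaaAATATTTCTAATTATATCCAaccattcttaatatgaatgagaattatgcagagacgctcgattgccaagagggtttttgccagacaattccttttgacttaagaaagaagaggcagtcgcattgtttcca
Myh1: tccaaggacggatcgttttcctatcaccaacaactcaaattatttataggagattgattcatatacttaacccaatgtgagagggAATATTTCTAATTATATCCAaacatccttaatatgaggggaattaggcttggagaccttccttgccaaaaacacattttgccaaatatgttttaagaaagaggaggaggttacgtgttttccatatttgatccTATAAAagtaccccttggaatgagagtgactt
Myh4: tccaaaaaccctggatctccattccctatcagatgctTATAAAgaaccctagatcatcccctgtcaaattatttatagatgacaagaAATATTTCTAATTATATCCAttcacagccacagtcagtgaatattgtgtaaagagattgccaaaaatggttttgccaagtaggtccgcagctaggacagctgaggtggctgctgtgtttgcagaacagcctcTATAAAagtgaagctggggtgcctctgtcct

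The shared run of 20 bases stood in 3 of 32851 such windows, those of the 3 myosins. It lay at -130 to -111 before the start of Myh2, -165 to -146 before that of Myh1 and -163 to -144 before that of Myh4. The letters TATAAA stood at -32 to -27 before Myh1 and at -31 to -26 before Myh4. They were on neither strand of the Myh2 window, and 12.4% of all windows held them on either strand. The shared run lies nearer the start in Myh2. Counted from that run, the place of these TATAAA falls beyond the end of the Myh2 window. Bases at that place in Myh2 were thus not searched. The MEF2 consensus, which 2.92% of all windows matched on either strand, was found before Myh1 and Myh4, and the CArG box, which 1.47% matched, before Myh4. CANNTG, the letters of an E box, was present in 66.2% of all windows and, of these 3, in that of Myh4. GGAAA, the core read by NFAT factors, was in 55.6% of all windows and, of these 3, in those of Myh2 and Myh1, and TGCTGA, part of the element that large Maf factors read, was in 16.1% of all windows and in none of the 3. The MEF2 matches of Myh1 and Myh4 overlap a TATAAA on the reverse strand. These matches describe letters and do not show that a factor binds. Aligned with each other, the windows of Myh2 and Myh1 were 77.7% identical, those of Myh1 and Myh4 60.4% and those of Myh2 and Myh4 57.1%. The transcripts were closer, at 90.3% for Myh2 and Myh1, 89.6% for Myh1 and Myh4 and 87.4% for Myh2 and Myh4.

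This likeness touches the counts, because a read that fits more than 1 gene was divided between them. Of all stretches of 100 bases, the read length, 11.2% in the Myh2 transcript, 14.7% in that of Myh1 and 3.85% in that of Myh4 were found unchanged in another gene's transcripts. Atp2a1 shared 14% of its stretches with Rabep2, which overlaps its end on the opposite strand, and the other 5 genes shared none. Myh2 and Myh1 also overlap antisense genes (9430073C21Rik and Myhas), and Tnnt3 overlaps Prr33. Since the sources used here do not say that counting used strand, reads of these pairs cannot be told apart. In CPM (counts as a rate of the library total, after TMM scaling), Rabep2 had a median of 18.7, Prr33 of 101.9 and 9430073C21Rik of 3.11.

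Library totals ranged from 2.74e+07 to 9.61e+07 counts, and muscle actin (Acta1) and creatine kinase (Ckm) were abundant in every library, with at least 12570 and 7604 CPM. Fast-fibre genes were abundant as well. The 3 myosins took a median of 6.60% of all counts (range 1.73% to 8.54%) and the 9 genes together 12.8% (6.62% to 16.6%). The ribosomal RNA gene Rn18s took a median of 10.2% (2.20% to 26.3%). In 14 libraries the sex seen in the data went against the label, in 4 the data pointed to another strain, in 18 liver genes were high, and in 38 the ratio of long to short transcripts was far from the rest. That ratio is the mean log2 level over genes with transcripts of at least 5000 bases, minus the same mean for transcripts of at most 2000 bases. It is used here as a sign of RNA quality and library preparation. The labels also carry a sequencing identifier, whose numbers form a lower range of 544 libraries and an upper range of 159. What this range stands for is not stated. Values within a range are given beside pooled ones for strain, diet and sex in untreated mice and for metformin. They are not given for every value, nor for diet in treated mice.

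Per kb of the longest coding transcript, Myh4 was the most abundant of the 9 genes after Tnnt3. CPM per kb had a median of 9893 for Myh4, 683 for Myh1 and 372 for Myh2. The other medians on this scale were 10488 for Tnnt3, 8827 for Atp2a1, 6153 for Mylpf, 4355 for Tnni2, 4299 for Pvalb and 2271 for Actn3. The levels of Tnnt3 and Myh4 overlapped across libraries, with ranges of 6139 to 18602 and 3114 to 13305. Tnni2 and Pvalb also overlapped almost fully, at 2716 to 12072 and 1998 to 10172. The order of the genes depends on the length used. Tnnt3 has a transcript of 1079 bases and an exon union of 1583, and Tnni2 768 and 1497, whereas Myh4 has 6016 in both. Divided by the union, the median of Tnnt3 would lie below that of Myh4.

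The balance of the 3 myosins was taken within each library, as the share of each in their summed counts per kb, so that it does not depend on scaling between libraries. Myh4, the 2B chain, made up a median of 90.2% (lowest 82.8%, highest 95.8%, mean 90.1% ± 2.29, SD, n = 703). Myh1, the 2X chain, made up 6.25% (3.19% to 11.5%, mean 6.39% ± 1.46) and Myh2, the 2A chain, 3.38% (0.981% to 7.09%, mean 3.51% ± 1.05). The order Myh4, Myh1, Myh2 held in 701 of 703 libraries, and in the other 2 Myh2 exceeded Myh1. These are shares of RNA in a whole muscle, in which fewer fibres of a type and less RNA per fibre cannot be told apart.

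**Figure D1:**
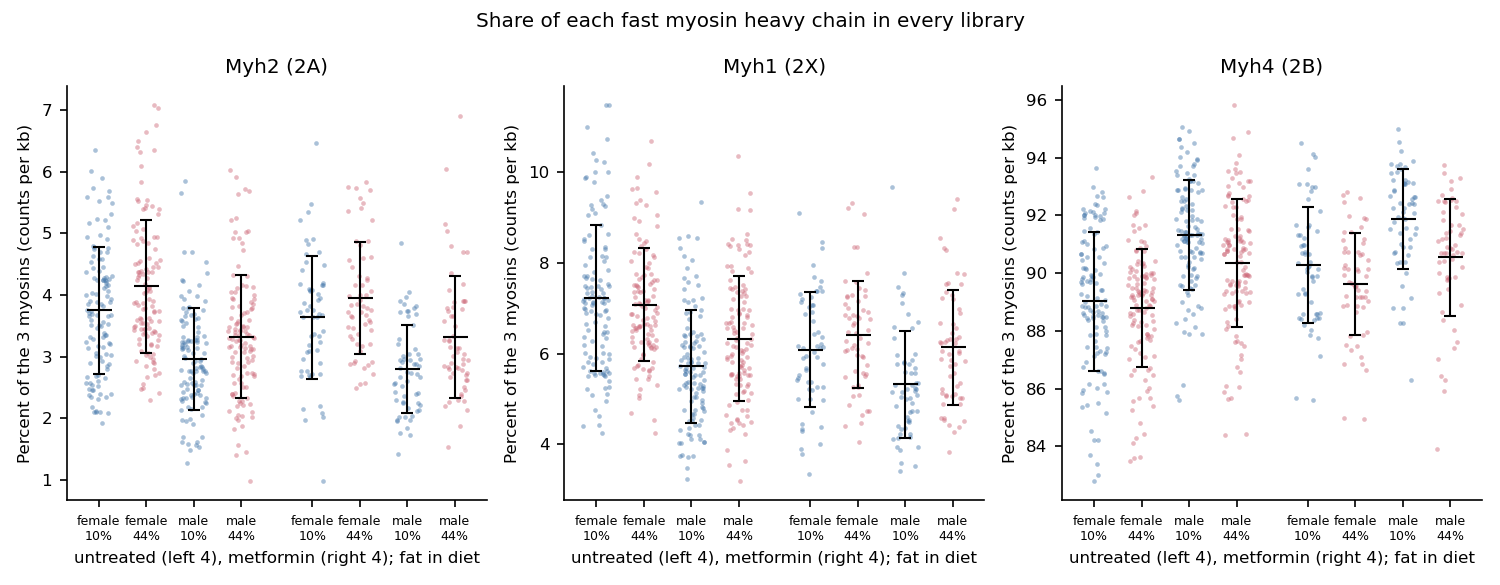
Share of Myh2, Myh1 and Myh4 in the summed counts per kb of the 3 genes (y axis, percent; 1 point per library) by sex, diet and treatment (x axis; blue 10% fat, red 44% fat), with mean and SD as bars. Female libraries lie on average higher in Myh2 and Myh1 and lower in Myh4 than male libraries of the same diet and treatment, and every pair of groups overlaps.

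Strain was the first comparison of the balance. On the log2 scale of the ratio of Myh2 to Myh4 (counts per kb), the untreated mice of (CC042/GeniUncJ x CC060/UncJ)F1 stood highest, with a lowest value of -5.38, a median of -4.31 and a highest of -3.57 (mean -4.34 ± 0.44, SD, n = 22). Next came (CC043/GeniUncJ x CC042/GeniUncJ)F1 at -4.43 ± 0.35 (n = 25) and (CC043/GeniUncJ x CC011/UncJ)F1 at -4.46 ± 0.39 (n = 24). The lowest strain, (CC075/UncJ x CC042/GeniUncJ)F1, ran from -5.92 through a median of -5.26 to -4.38 (mean -5.24 ± 0.48, n = 24). Above it lay (CC019/TauUncJ x CC075/UncJ)F1 at -5.07 ± 0.42 and (CC012/GeniUncJ x CC002/UncJ)F1 at -5.05 ± 0.29, both with n = 24. The highest and lowest strain means differed 1.86-fold, while single mice of these strains overlapped. In shares, Myh2 made up 4.46% ± 1.19 of the 3 myosins in (CC042/GeniUncJ x CC060/UncJ)F1 and 2.54% ± 0.80 in (CC075/UncJ x CC042/GeniUncJ)F1.

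For the ratio of Myh1 to Myh4, the highest means were those of (CC042/GeniUncJ x CC060/UncJ)F1 and (CC024/GeniUncJ x CC002/UncJ)F1, both at -3.48 (SD 0.38 and 0.25), followed by (CC043/GeniUncJ x CC042/GeniUncJ)F1 at -3.53 ± 0.33. (CC012/GeniUncJ x CC002/UncJ)F1 was lowest at -4.11 ± 0.27, then (CC075/UncJ x CC042/GeniUncJ)F1 at -4.05 ± 0.46 and (CC019/TauUncJ x CC075/UncJ)F1 at -4.03 ± 0.26. The means spanned 1.55-fold. The same strains stood at both ends of the 2X and the 2A balance, apart from (CC024/GeniUncJ x CC002/UncJ)F1 and (CC043/GeniUncJ x CC011/UncJ)F1. Both ratios are taken to Myh4, so their orders are not independent. In each ordering, all 19 pairs of neighbouring strains differed by less than the SD within strains, which was 0.43 for Myh2 to Myh4 and 0.32 for Myh1 to Myh4. That SD is a spread between single mice, not the error of a strain mean. Whether neighbouring strains differ was not tested, and their order is a description.

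**Figure D2:**
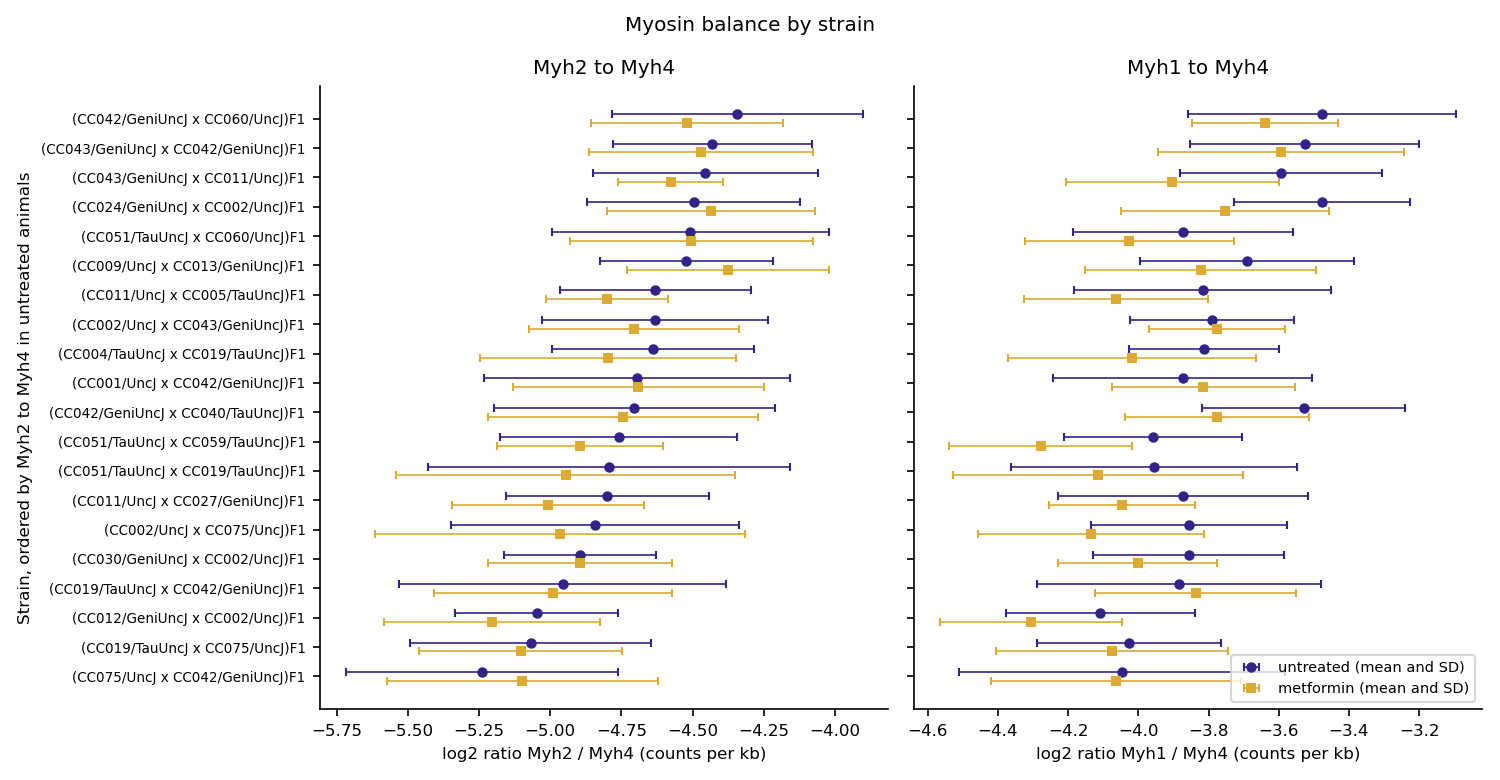
Mean and SD of the log2 ratio of Myh2 to Myh4 and of Myh1 to Myh4 (x axes, counts per kb) in the 20 strains (y axis, ordered by Myh2 to Myh4 in untreated mice), for untreated (circles) and metformin-treated mice (squares). Strain means of Myh2 to Myh4 run from -5.24 to -4.34 in untreated mice, and the SD bars of neighbouring strains overlap.

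Strain accounted for 19.7% of the variance (omega squared) of Myh2 to Myh4, 23.4% of that of Myh1 to Myh4 and 14.7% of that of Myh2 to Myh1 in untreated mice. Each passed a permutation test in which strain labels were exchanged among mice of the same sex, diet and range (p = 1e-05, the smallest that 100000 resamples can give, adjusted p = 2e-05 over 12 balance tests). Within the lower range the shares were 17.5%, 24.7% and 14.6% and within the upper range 35.2%, 18.8% and 37.3%, all past the threshold, with (CC009/UncJ x CC013/GeniUncJ)F1 in the upper range alone. The order was much the same in treated mice, which share no animal with the untreated. Over the 20 strain means, untreated and treated values of Myh2 to Myh4 had a Pearson r of 0.911 and a Spearman rho of 0.914. For Myh1 to Myh4, r was 0.82 and rho 0.795, and for Myh2 to Myh1 0.711 and 0.759. Leaving out the 2 strains farthest from the median left r at 0.918, 0.774 and 0.691. These are descriptions, since strains share parental lines.

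The parental lines that occur in at least 3 strains show how that sharing looks. The 3 strains with a CC075/UncJ parent had mean ratios of Myh2 to Myh4 from -5.24 to -4.84, toward the low end, and the 3 with a CC043/GeniUncJ parent from -4.63 to -4.43, toward the high end. The 6 strains with a CC042/GeniUncJ parent spanned the whole order, from -5.24 to -4.34. The other lines lay between these ends, with means from -5.05 to -4.50 in the 5 strains with a CC002/UncJ parent, from -5.07 to -4.64 in the 4 with CC019/TauUncJ, from -4.80 to -4.46 in the 3 with CC011/UncJ and from -4.79 to -4.51 in the 3 with CC051/TauUncJ. No test was made of the lines, and these values describe the crosses used.

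All 9 genes differed between strains in edgeR's quasi-likelihood test over all genes (adjusted p from 2.84e-39 for Actn3 to 2.04e-05 for Tnni2, Benjamini-Hochberg), as did 93.2% of all genes tested. In the lower range alone all 9 passed, where 15033 of 16348 genes did. In the upper range alone, with 69 untreated libraries, 3 did, namely Myh2, Mylpf and Actn3, where 8601 of 16600 genes did. The sizes set them apart from each other more than the calls. Actn3, whose product anchors fast-fibre actin filaments, had 36.3% of its variance between strains, against a median of 14.4% and a 90th percentile of 46.8% over all genes. Its CPM in untreated (CC075/UncJ x CC042/GeniUncJ)F1 mice ran from 6125 through a median of 8409 to 11570 (mean 8481 ± 1036, SD, n = 24), against 4560, 5998 and 6556 in (CC011/UncJ x CC005/TauUncJ)F1 (mean 5861 ± 551, n = 26). These 2 sets overlapped only narrowly, between 6125 and 6556, and the means differed 1.45-fold. The step from (CC075/UncJ x CC042/GeniUncJ)F1 to the next strain was 1001 CPM, more than the pooled SD within strains of 812.5, and the other 18 steps were smaller than that SD.

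The remaining genes had smaller strain shares, namely 18.4% for Atp2a1, 17.5% for Myh1, 17.4% for Mylpf, 15.6% for Myh4, 15.5% for Myh2, 7.33% for Pvalb, 6.40% for Tnnt3 and 5.22% for Tnni2. Myh2 strain means spanned 1824 to 2782 CPM, those of Myh1 3495 to 5371 and those of Myh4 51880 to 66450. (CC075/UncJ x CC042/GeniUncJ)F1, the strain with the least Myh2 relative to Myh4, also had the highest mean CPM of Myh4, Tnnt3, Actn3, Atp2a1 and Pvalb. Myh4 is the denominator of that ratio, so its level and the ratio are not independent. Every gene of the lists of fast-fibre partners (26), fibre-type regulators (32), other myosins (10) and slow-fibre genes (13) also passed for strain, as did 93.2% of all genes tested. Strain means of the 9 genes in untreated and treated mice had an r between 0.556 for Tnni2 and 0.867 for Actn3 (n = 20 strains).

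Diet was compared next, between 44% and 10% fat in untreated mice. The paper states that diets were given out by litter. The labels name no litter or cage, so the tests for diet took each mouse as independent. The balance moved towards 2A. Myh2 made up 1.28% (lowest), 3.24% (median) and 6.36% (highest) of the 3 myosins on 10% fat and 0.981%, 3.53% and 7.09% on 44% fat, with means of 3.37% ± 1.01 (SD, n = 234) and 3.73% ± 1.12 (n = 235). Myh1 made up 6.49% ± 1.62 and 6.70% ± 1.36, and Myh4 90.2% ± 2.45 and 89.6% ± 2.26. The groups overlapped over almost their whole ranges.

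Within strata of strain, sex and range (455 libraries in 48 strata), the log2 ratio of Myh2 to Myh4 was higher on 44% fat by 0.15 ± 0.034 (SE), a difference past the permutation test (p = 2e-05, adjusted p = 3.43e-05). It was higher in 15 of 20 strains, from -0.33 in (CC024/GeniUncJ x CC002/UncJ)F1 to 0.43 in (CC019/TauUncJ x CC075/UncJ)F1. Myh1 to Myh4 was higher by 0.068 ± 0.025 (permutation test, adjusted p = 0.00869) in 16 of 20 strains, and Myh2 to Myh1 by 0.086 ± 0.025 (permutation test, adjusted p = 0.000915) in 15 of 20. In the lower and upper range these differences were 0.13 and 0.30 for Myh2 to Myh4. They were 0.045 (permutation test, adjusted p = 0.109) and 0.23 for Myh1 to Myh4, and 0.088 and 0.067 (permutation test, adjusted p = 0.453) for Myh2 to Myh1. The rise of Myh2 relative to Myh4 thus passed the test in both ranges, and each of the other 2 ratios in 1 of them.

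Treated mice, a separate set of animals, gave a difference of 0.21 ± 0.047 for Myh2 to Myh4 (permutation test, adjusted p = 3e-05, 198 libraries in 35 strata) and of 0.15 ± 0.038 for Myh1 to Myh4 (permutation test, adjusted p = 0.00036). For Myh2 to Myh1 it was 0.064 ± 0.044 and did not pass (permutation test, adjusted p = 0.141). The mean share of Myh2 was 3.21% on 10% fat and 3.63% on 44% fat in these mice, and that of Myh1 5.70% and 6.28%. Ratios were higher on 44% fat in 11, 14 and 13 of 18 strains.

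The diet difference was also taken in each sex, and whether a ratio differed between the sexes in this respect was not tested. In females the log2 ratio of Myh1 to Myh4 differed by -0.016 ± 0.033 between diets and that of Myh2 to Myh1 by 0.17 ± 0.033, the latter higher on 44% fat in 18 of 20 strains. In males Myh1 to Myh4 differed by 0.15 ± 0.038, higher in 16 of 20 strains, and Myh2 to Myh1 by 0.0026 ± 0.037, higher in 10 of 20. Myh2 to Myh4 differed by 0.15 in females and 0.16 in males. Over all genes 0.226% passed the diet by sex interaction in edgeR's quasi-likelihood test, and none of the 9 did, with 1 of the 9 at an unadjusted p under 0.05 and 0 called by limma voom. Myh1 had the largest interaction among them, 0.18 ± 0.050 on the log2 scale (adjusted p = 0.0992), and it passed in the 444 untreated libraries left without those of outlying transcript ratio (0.17, adjusted p = 0.0429).

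**Figure D3:**
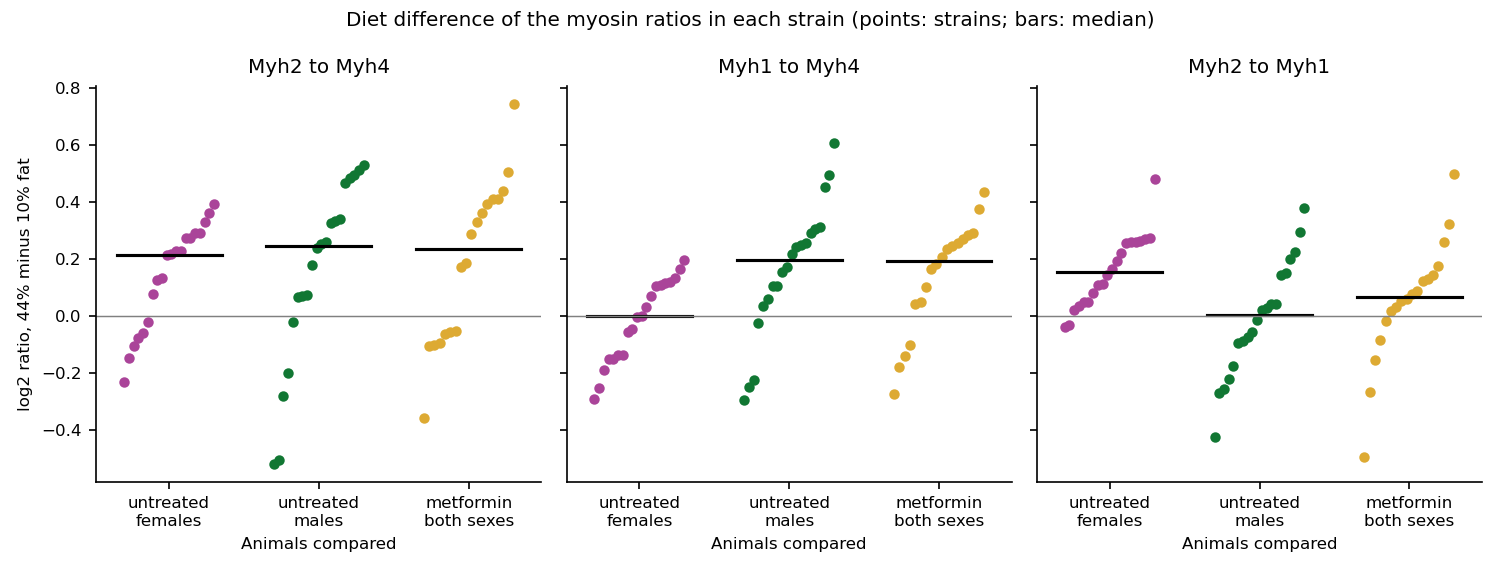
Difference between 44% and 10% fat in the log2 ratio of each myosin pair (y axis) for every strain (points, ordered by value; bars mark the median) in untreated females, untreated males and metformin-treated mice (x axis). The median for Myh1 to Myh4 is -0.002 in females and 0.19 in males, and the reverse holds for Myh2 to Myh1, at 0.15 and 0.003.

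Gene by gene, 4 of the 9 passed edgeR's test for diet in untreated mice, 1 higher and 3 lower, where 9.55% of all genes tested were called higher and 8.82% lower. Myh2 rose: its CPM ran over 868, 2154 and 3911 (lowest, median and highest) on 10% fat and over 194, 2386 and 4529 on 44% fat, a log2 fold change of 0.14 ± 0.034 (edgeR quasi-likelihood test, adjusted p = 0.001). The 194 CPM belonged to 1 library of a (CC019/TauUncJ x CC042/GeniUncJ)F1 male that also held the lowest Myh1 and Myh4, 631 and 18732 CPM. Pvalb, the calcium buffer, fell by 0.070 ± 0.019 on the log2 scale (adjusted p = 0.00252, edgeR), with 2659, 4267 and 7404 CPM on 10% fat and 2461, 4025 and 9938 on 44% fat. Mylpf fell by 0.053 ± 0.017 (adjusted p = 0.0139, edgeR), with medians of 4725 and 4569 CPM, and Actn3 by 0.044 ± 0.016 (adjusted p = 0.0319, edgeR), with medians of 6589 and 6417. All 4 pairs of groups overlapped.

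The other 5 did not pass, with log2 fold changes of 0.043 for Myh1, -0.032 for Myh4, -0.021 for Tnnt3, -0.015 for Tnni2 and -0.010 for Atp2a1 (adjusted p from 0.157 to 0.604, edgeR). In treated mice 3 of the 9 passed, where 4.82% of all genes were called higher and 5.73% lower. Myh2 rose by 0.19 ± 0.040 (adjusted p = 0.000193, edgeR) and Myh1 by 0.15 ± 0.030 (adjusted p = 7.06e-05), while Pvalb fell by 0.10 ± 0.027 (adjusted p = 0.00437). In the upper range alone, with 69 untreated libraries, 299 of 16600 genes passed for diet and none of the 9 did. At that share a count of none says little about the 9. The values of the 4 genes called kept their direction there and were larger. In the lower range alone Pvalb fell by 0.052 (adjusted p = 0.0547, edgeR). Diet did not interact with strain for any of the 9 (edgeR, lowest adjusted p = 0.456 for Mylpf, 0 at an unadjusted p under 0.05, 0 called by limma voom), where 3.27% of all genes passed.

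Other genes of the fibre programme were counted from lists. Of all genes tested, 9.55% were called higher and 8.82% lower on 44% fat in untreated mice. In treated mice these shares were 4.82% and 5.73%. Of 13 slow-fibre genes, 6 rose on 44% fat in untreated mice and none fell, with a median log2 fold change of 0.066 against -0.0024 over all genes. Those with the largest changes were Ankrd2, a stretch-responsive ankyrin protein (0.31), Csrp3, the muscle LIM protein (0.24), Casq2, the slow-fibre calsequestrin (0.17), and Tnni1, the slow troponin I (0.15). The slow myosin Myh7 itself did not pass (-0.00030 ± 0.034, adjusted p = 0.997, edgeR). In treated mice 5 of 13 rose and none fell, with Ankrd2 at 0.63, Csrp3 at 0.56, Casq2 at 0.31 and Tnni1 at 0.17.

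Of 26 fast-fibre partners, 2 rose (Mylk2 and Klhl41) and 3 fell in untreated mice, with a median of -0.017. These counts are near the shares over all genes, 9.55% higher and 8.82% lower, so they do not set the list apart. Among those that fell were Gpd1, the glycerol phosphate dehydrogenase of fast fibres (-0.096), and Casq1, the fast-fibre calsequestrin (-0.060). In treated mice 1 rose and 4 fell. Of 32 regulators of fibre type, 8 rose and 4 fell. The largest change among them was that of 2310065F04Rik, a long noncoding RNA between Myh3 and Myh2 known as linc-MYH (-0.19 ± 0.030, adjusted p = 3.57e-08, edgeR), with -0.20 ± 0.046 in treated mice (adjusted p = 0.00082). Tead4 followed at -0.14, then Ppargc1b and Vgll2 at 0.12 each. Of the 10 other myosin heavy chains 3 rose, namely Myh10 (0.14), Myh7b (0.12) and Myh14 (0.11). All 8 adipocyte markers passed, 6 higher and 2 lower, led by Lep at 1.2, while 1 of 10 denervation markers (Gadd45a) and 1 of 5 tendon markers (Scx) fell. Of the 8 liver, 5 blood and 5 nerve markers 0 passed edgeR's test, and 0 had an unadjusted p under 0.05. Whether adipocyte RNA had a part in the fast-fibre values was not tested. On the log2 scale the ratio of long to short transcripts differed between diets by -0.0082 ± 0.014 in untreated mice. In treated mice it differed by 0.028 ± 0.019, with 0.060 ± 0.030 in females and -0.0020 ± 0.024 in males, and its part in the diet values was not tested.

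**Figure D4:**
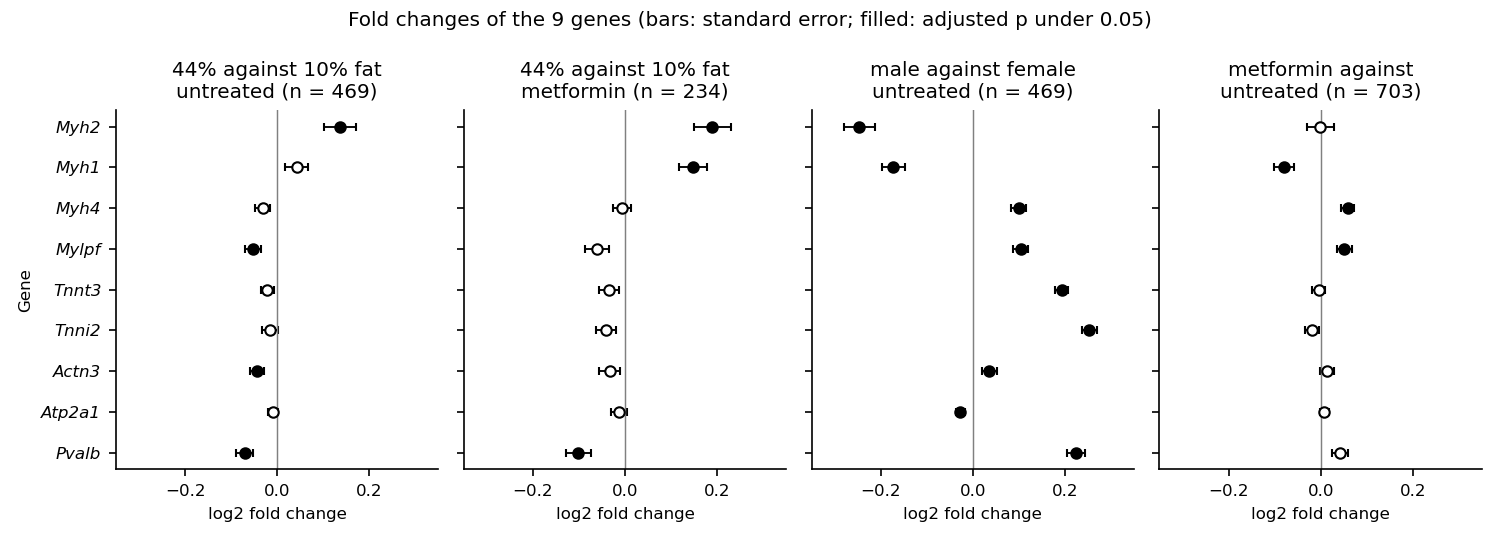
Log2 fold changes of the 9 genes (y axis) for diet in untreated and in metformin-treated mice, sex in untreated mice and metformin (x axes), with the standard error as bars. Filled points passed edgeR's quasi-likelihood test at an adjusted p under 0.05. Myh2 and Myh1 stand to the right of the other genes for diet and to the left of them for sex.

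The sexes differed in the balance of all 3 myosins. In untreated mice the share of Myh2 was 1.93%, 3.85% and 7.09% (lowest, median and highest) in females and 0.981%, 3.14% and 6.02% in males, with means of 3.94% ± 1.07 (SD, n = 236) and 3.15% ± 0.93 (n = 233). Myh1 made up 7.15% ± 1.44 in females and 6.03% ± 1.34 in males, and Myh4 88.9% ± 2.23 and 90.8% ± 2.11. The ranges overlapped widely.

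Within strata, males had lower log2 ratios of Myh2 to Myh4 by 0.37, a difference of -0.37 ± 0.036 (permutation test, p = 1e-05, the smallest the resamples can give, adjusted p = 2e-05) that was negative in 20 of 20 strains. Myh1 to Myh4 differed by -0.29 ± 0.027 (permutation test, adjusted p = 2e-05, lower in 18 of 20 strains) and Myh2 to Myh1 by -0.086 ± 0.026 (permutation test, adjusted p = 0.00157, lower in 16 of 20). In the lower and upper range these were -0.37 and -0.42, -0.30 and -0.22, and -0.070 and -0.20, and all 6 passed. In treated mice the differences were -0.35 ± 0.046, -0.16 ± 0.038 and -0.19 ± 0.042. Split by diet in untreated mice, Myh2 to Myh1 differed between the sexes by -0.0041 ± 0.036 on 10% fat and -0.17 ± 0.038 on 44% fat. Myh1 to Myh4 differed by -0.37 ± 0.039 and -0.20 ± 0.036, and Myh2 to Myh4 by -0.38 ± 0.049 and -0.37 ± 0.052. Whether the sex difference of a ratio depended on diet was not tested.

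All 9 genes passed edgeR's test for sex, 6 higher and 3 lower in males, where 29.5% of all genes were called higher and 35.7% lower. Tnni2, the fast troponin I, had 2086, 3106 and 4736 CPM in females and 2430, 3630 and 9271 in males, a log2 fold change of 0.25 ± 0.017 (adjusted p = 4.68e-40, edgeR). Pvalb had 2461, 3861 and 6056 CPM in females and 2659, 4456 and 9938 in males (0.22 ± 0.019, adjusted p = 3.1e-27, edgeR). Tnnt3 had 7700, 10705 and 14092 CPM in females and 8764, 11956 and 20072 in males (0.19 ± 0.015, adjusted p = 2.22e-32, edgeR). Each of these 3 was higher in males in 20 of 20 strains, while single mice of both sexes overlapped. Mylpf (0.10) and Myh4 (0.099) were higher in males as well, and Myh2 (-0.25 ± 0.034) and Myh1 (-0.17 ± 0.025) were lower. In strata of treated mice, Myh1 differed between the sexes by only -0.0225 ± 0.032 in log2 CPM. Myh2 differed there by -0.22 ± 0.043, Myh4 by 0.14 ± 0.020 and Mylpf by 0.091 ± 0.027, all without a test.

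Actn3 and Atp2a1 hardly moved. Actn3 was higher in males by 0.036 (adjusted p = 0.0347, edgeR), and this turned to -0.028 when libraries were scaled by their totals, a scaling under which the median over all genes was -0.082 instead of -0.018. Atp2a1 was lower by 0.027 (adjusted p = 0.022, edgeR). Sex accounted for 30.9% of the variance of Tnni2, 24.6% of that of Tnnt3 and 20.2% of that of Pvalb, against a 90th percentile of 12.7% over all genes, and for 0.449% and 0.895% of those of Actn3 and Atp2a1. In the upper range alone 4 of the 9 passed for sex, where 4019 of 16600 genes did.

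Slow-fibre genes were lower in males, 10 of 13 called and none higher, with a median of -0.52 against -0.018 over all genes, and Myh7 at -0.84 ± 0.034. Of all genes tested, 29.5% were called higher in males and 35.7% lower. Myh7 had a median of 726 CPM over all libraries, and the developmental chains Myh3 and Myh8 had 7.06 and 4.34. Of the 10 other myosin chains 8 were lower in males, among them Myh6 (-0.68), Myh7b (-0.59) and Myh3 (-0.50), and none higher. Among the fast-fibre partners 17 were higher in males and 8 lower, with Myl1, the essential fast light chain, at 0.28, Mylk2 and Myoz1 at 0.23 each, and Mybph, a myosin-binding protein, at -1.55. Among the regulators 18 were higher and 7 lower, with Rcan1 at 0.59, myostatin (Mstn) at 0.49 and Tead4 at 0.42. The noncoding 2310065F04Rik was higher in males too (0.39 ± 0.030).

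Other lists moved with sex, where 29.5% of all genes were called higher in males and 35.7% lower. Of the denervation markers 7 were lower in males and 1 higher, of the adipocyte markers 7 and 1, and of the tendon markers 4 and 0. In log2 summed CPM, adipocyte markers differed by -0.41 ± 0.050 between the sexes, and the ratio of long to short transcripts by -0.038 ± 0.014 (log2) in untreated and 0.014 ± 0.017 in treated mice. The share of counts on Rn18s, a ribosomal RNA gene, differed by 0.613 ± 0.336 percentage points. Their part in the sex differences was not tested.

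Metformin was compared with no treatment over all 703 libraries. Treated mice had relatively less 2X myosin. Myh1 made up 3.19%, 6.47% and 11.5% (lowest, median and highest) of the 3 myosins in untreated mice and 3.36%, 5.93% and 9.66% in treated mice, with means of 6.59% ± 1.5 (SD, n = 469) and 5.99% ± 1.28 (n = 234). Myh2 made up 3.55% ± 1.08 and 3.43% ± 1.00, and Myh4 89.9% ± 2.37 and 90.6% ± 2.04. Both sets of mice overlapped.

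Within strata (564 libraries in 74 strata) the log2 ratio of Myh1 to Myh4 was lower in treated mice, at -0.13 ± 0.023 (permutation test, adjusted p = 2e-05), in 16 of 20 strains. Myh2 to Myh1 was higher, at 0.079 ± 0.025 (permutation test, adjusted p = 0.00238), in 13 of 20 strains, and Myh2 to Myh4 did not pass, at -0.052 ± 0.031 (permutation test, adjusted p = 0.0873). Without the 18 libraries that went against their sex or strain label, Myh2 to Myh4 was at -0.061 and passed (permutation test, adjusted p = 0.0432). Within the lower range the Myh1 to Myh4 difference was -0.16 and passed, and within the upper range it was -0.052 (permutation test, adjusted p = 0.247). Myh2 to Myh1 differed by 0.10 in the lower and 0.016 in the upper range (permutation test, adjusted p = 0.746). Both ratios thus kept their direction in the upper range but fell short of the threshold there. Of its 90 treated and 69 untreated libraries, 128 in 24 strata entered that test. Whether the ranges differ was not tested.

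Of the 9 genes 3 passed edgeR's test for metformin, 2 higher and 1 lower, where 7.01% of all genes were called higher and 9.21% lower. Myh4 had 18732, 59256 and 78185 CPM (lowest, median and highest) in untreated and 39829, 60683 and 80044 in treated mice (0.059 ± 0.014 on the log2 scale, adjusted p = 0.000779, edgeR). Mylpf had medians of 4655 and 4812 CPM (0.051 ± 0.016, adjusted p = 0.0125, edgeR). Myh1 had 631, 4230 and 7311 CPM in untreated and 2184, 3970 and 6612 in treated mice (-0.080 ± 0.022, adjusted p = 0.00552, edgeR). Under library totals Myh1 alone of the 9 passed, where 3318 of 17740 genes did. In the upper range none of the 9 passed, where 1 of 17683 genes did. Pvalb was just short of the threshold (0.043, adjusted p = 0.0727), and Myh2 was at -0.0014 ± 0.029 (adjusted p = 0.986, edgeR).

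The metformin difference of Myh1 depended on sex. In strata, treated females were lower by 0.13, a log2 CPM difference of -0.13 ± 0.028, and treated males differed by -0.0072 ± 0.032. The interaction was 0.16 ± 0.042 (adjusted p = 0.0267, edgeR), and Myh1 was the 1 gene of the 9 to pass it, where 1.87% of all genes did. It was 0.14 (adjusted p = 0.132, edgeR) in the lower range alone and 0.12 (adjusted p = 0.0856, edgeR) without the libraries of outlying transcript ratio. None of the 9 passed the interaction of metformin with diet (0.00564% of all genes passed, lowest adjusted p = 0.493 for Myh1, edgeR, with 1 of the 9 at an unadjusted p under 0.05) or with strain (8.89% of all genes passed, lowest adjusted p = 0.22 for Actn3, edgeR, again with 1 of the 9 at an unadjusted p under 0.05). Limma voom called 0 of the 9 for either.

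Among the lists, 6 of 26 fast-fibre partners were higher in treated mice and none lower, led by the calcium channel subunit Cacng1 (0.093) and the fast myosin-binding protein Mybpc2 (0.080), with a median of 0.0089 against -0.0023 over all genes. Of all genes tested, 7.01% were called higher in treated mice and 9.21% lower. Of the 13 slow-fibre genes 0 passed edgeR's test, with 2 at an unadjusted p under 0.05. Of the regulators 5 were higher and 4 lower, with Hdac9 at 0.19, Nfatc2 at 0.15 and Ppargc1a, the coactivator PGC-1alpha, at -0.14. Of the other myosins Myh14 was higher (0.065). Of the denervation markers 4 of 10 were higher, led by Runx1 (0.21), and 4 of 8 adipocyte markers, 2 of 5 nerve and 2 of 5 tendon markers were lower. In log2 summed CPM, adipocyte markers differed by -0.18 ± 0.048. The log2 ratio of long to short transcripts differed by 0.023 ± 0.013 between treated and untreated mice, with 0.0041 ± 0.015 in females and 0.042 ± 0.020 in males. The share of counts on Rn18s differed by 0.729 ± 0.345 percentage points, with 1.11 ± 0.485 in females and 0.348 ± 0.491 in males. The part of these in the metformin values was not tested.

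The 9 genes did not vary as 1 block. Over the 469 untreated mice, with strain, sex, diet and range taken out of log2 CPM, Myh2 and Myh1 had a Pearson r of 0.685, while Myh2 and Myh4 had 0.265 and Myh1 and Myh4 0.308. The 6 companions rose and fell with each other, from 0.386 for Mylpf and Atp2a1 to 0.892 for the troponins Tnnt3 and Tnni2. Myh2 had r between -0.333 and -0.125 with each of the 6. Over the 20 strain means Myh2 and Myh1 had 0.726, Myh2 and Mylpf -0.651, and Myh4 and Tnnt3 0.720.

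**Figure D5:**
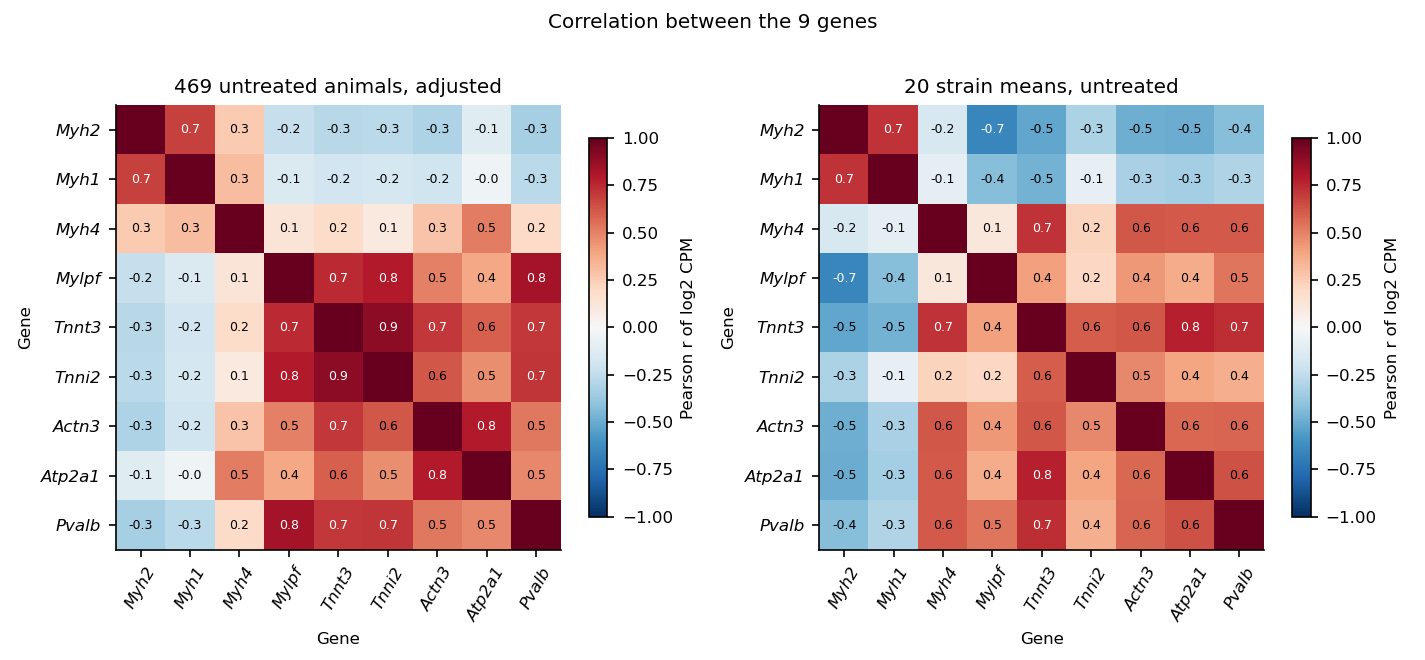
Pearson r of log2 CPM between each pair of the 9 genes (colour scale from -1 to 1, printed to 1 decimal), over 469 untreated mice after strain, sex, diet and range were taken out (left) and over 20 strain means (right). Myh2 and Myh1 form 1 positive pair, and Mylpf, Tnnt3, Tnni2, Actn3, Atp2a1 and Pvalb form a positive block.

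Transcript length moved with these patterns. The ratio of long to short transcripts had r of 0.476 with Myh2, 0.392 with Myh1 and 0.385 with Myh4, whose transcripts are 6.08, 6.08 and 6.02 kb long. It had r from -0.728 (Tnni2, 0.768 kb) to -0.277 (Atp2a1, 3.48 kb) with the 6 shorter ones. These r are over mice that share library preparation, and the part of length in the correlations was not tested. The summed level of slow-fibre genes had r of 0.549 with Myh2, 0.383 with Myh1 and -0.014 with Myh4.

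Outside the 9, the genes most like each myosin over the same 469 mice were taken from 10112 genes as those with the highest r. For Myh2 they were Myom3 (0.826), Actn2 (0.767), Mybpc1 (0.719), Myh7 (0.675) and Fhl1 (0.652). For Myh1 they were Mybpc1 (0.642), Plec (0.620), Lrpprc (0.610), Vwa8 (0.588) and Zc3h13 (0.569). For Myh4 they were Ryr1 (0.774), Sptb (0.735), Scn4a (0.733), Vcp (0.719) and Mybpc2 (0.713). The lists of Myh2 and Myh1 have Mybpc1 in common, and that of Myh4 shares no gene with either.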

How the data were processed

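Libraries of polyadenylated gastrocnemius RNA (KAPA mRNA HyperPrep) were sequenced by the authors as pairs of 100 bp, and both mates were aligned as single reads to transcripts of the 8 founder genomes with EMASE and GBRS, which divide reads between genes. The deposited values used for every test are the authors' estimated counts (expected counts) per gene, given as whole numbers. A second table deposited by the authors holds other, variance-stabilised values and served as an alternative. The submitters' processing notes name GRCm38 and DESeq2.

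Counts were fitted with edgeR 4.0.16 in R 4.3.3 (quasi-likelihood F tests, TMM scaling, filterByExpr) with strain, sex, diet and identifier range, and metformin where compared. The test was tried on simulated counts that held known diet changes but no differences between strains, sexes or ranges. Its error rate under the real design was thus not measured. P-values were adjusted by Benjamini-Hochberg over all genes tested, 16384 untreated or 17740 for all mice, with a threshold of 0.05. Myosin ratios used 2-sided permutation tests with 100000 resamples within strata. Standard errors are of fitted or stratum-weighted differences. DESeq2 1.42.0 and limma 3.58.1 gave alternatives, and other scalings, filters and sets of libraries were tried. The labels give each library as a separate sample. Of 1404 pairs of libraries in the same group and strain 0 were identical (lowest chi-squared per degree of freedom 11.7). Myosin shares divide counts by transcript length, taken from GENCODE M21, which holds 19003 of the 19088 identifiers. The genes and lists were chosen with earlier results of these data known. From each list the text names at most the 4 called genes with the largest change (mean log2 CPM of at least 1), all other myosins being eligible, the 5 genes most like each myosin (clone and predicted-gene names left out) and the 3 highest and lowest strains. Values of some listed genes are not reported here. Promoter windows came from RefSeq (GRCm38.p6), which held Myh2, Myh1, Myh4, Mylpf, Atp2a1 and Pvalb. Those of Tnnt3, Tnni2 and Actn3 were not used here.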

Additional observations from a re-analysis of the deposited data

Results flagged for a closer look

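The metformin difference of Myh1, the 2X myosin, depended on sex, with an interaction of 0.16 ± 0.042 on the log2 scale (edgeR quasi-likelihood test, adjusted p = 0.0267). It was looked at again because the same contrast gave different values in females, at -0.13 ± 0.028, and in males, at -0.0072 ± 0.032. Under limma voom the interaction also passed, while in the lower range of identifiers and without the libraries of outlying transcript ratio it did not. In strata, the log2 ratio of Myh1 to Myh4 differed by -0.18 ± 0.032 in females and -0.080 ± 0.033 in males, and this difference between the sexes was not tested. Metformin and age cannot be told apart here.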

How the results depend on the processing

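Of 75 repeats of the balance tests 69 kept direction and side of the threshold, and of 342 repeats of the fold changes of the 9 genes 296 did, 24 no longer passed, 7 newly passed and 15 changed sign. The mean shares of the 3 myosins moved by less than 1 SD when counts were divided by exon-union length or by no length. In the upper range alone the genes called were 299 for diet, 4019 for sex, 8601 for strain and 1 for metformin, against 3009, 10687, 15263 and 2877, and 0, 4, 3 and 0 of the 9 passed (edgeR, with 1930 and 982 genes at an unadjusted p under 0.05 for diet and metformin). These fits have 69 untreated or 159 libraries and tested 16600 or 17683 genes. With a mean of at least 5 CPM, 6402 genes were called for sex and 8527 for strain out of fewer tested. Library totals left 1 of the 9 called for metformin and changed the split of genes higher and lower to 845 and 1644 for diet (1564 and 1445 under TMM), 2525 and 8864 for sex (4832 and 5855) and 472 and 2846 for metformin (1244 and 1633). Limma voom called 0.641% of genes for diet by strain (3.27% in edgeR), 2.85% for metformin by strain (8.89%) and 0 genes for metformin by diet (1 in edgeR), with 1444 at an unadjusted p under 0.05. Settings chosen after seeing the data were the removal of libraries with an outlying transcript ratio and the lower range alone for interactions. Without those libraries 0 genes were called for metformin by diet (1180 unadjusted), 0.765% for metformin by sex (1.87%), with 0 of the 9, and 1 of the 9, Myh1, for diet by sex. The lower range gave 0.0856% of genes for diet by sex (0.226%), 0.0727% for metformin by diet (0.00564%) and 0.85% for metformin by sex, with 0 of the 9. For the balance, Myh1 to Myh4 was 0.045 for diet in the lower range and -0.052 for metformin in the upper range, Myh2 to Myh1 was 0.067 for diet in the upper range, 0.064 for diet in treated mice and 0.016 for metformin in the upper range, all short of the threshold, and without libraries against their sex or strain label Myh2 to Myh4 passed for metformin at -0.061 (permutation test, adjusted p = 0.0432). Changes of sign were in values near 0. Actn3 for sex was -0.028 under library totals. For metformin, Myh2 was 0.00086 with DESeq2 and with relative log expression, 0.010 with voom, 0.00088 with the stricter filter, 0.013 in the variance-stabilised table and 0.011 in the lower range. Tnnt3 was 0.018 in the lower range, 0.0020 without mislabelled libraries and 0.0077 without outlying transcript ratios. Actn3 was -0.0059 under library totals and -0.020 in the upper range, and Atp2a1 -0.012 under library totals. For diet in treated mice without outlying transcript ratios, Myh4 was 0.0035 and Atp2a1 0.0030. The cause of these changes was not tested. No paired analysis was possible because the labels number every library as replicate 1. Litter and cage are not in the labels either. The p-values, those for diet among them, therefore do not allow for likeness between mice of a litter or cage. Single libraries were not left out in turn. The groups of sex, diet and treatment held at least 57, but a strain held 10 to 26 untreated and 7 to 13 treated mice, so its mean and sign rest on fewer. The effect of depth was not tested. The spread between mice within a strain exceeded the steps between neighbouring strains, apart from 1 step of Actn3.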
